A study of Homo sapiens with 12 samples.

Results

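The 44 genes described here encode the machinery that carries newly made proteins into and out of the endoplasmic reticulum and through the Golgi. They were chosen by gene name, with no cut on a measured value, though with earlier results of these data known. Among them are 9 genes of the translocon, 12 of the COPII coat and its exit sites and 10 of the COPI coat and its ARF switch. The others are 11 cargo receptors and 2 Golgi matrix proteins. The table holds 30225 genes, and all 44 were among the 15721 genes tested. RNA was sequenced from PC9, a human non-small cell lung cancer line whose growth depends on a mutant EGFR, and every culture, controls included, received gefitinib, an EGFR kinase inhibitor, at 300 nM. There were 4 groups of 3 libraries: AGR2 knockdown (shAGR2) for 24 h of drug, AGR2 overexpression (oeAGR2) for 72 h of drug, control cells at 72 h and control cells at 24 h. AGR2 itself works in the endoplasmic reticulum, where it belongs to the protein disulfide isomerases, and the design asks how its loss and its gain alter expression in drug-treated cells. The labels name neither the hairpin nor the control construct, and do not say whether replicates were separate cultures, so each p measures the spread between these libraries only.

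A protein destined for secretion is threaded through the SEC61 channel, often with help from the TRAP complex (genes SSR1 to SSR4) or the SEC62 and SEC63 proteins. It leaves the endoplasmic reticulum in vesicles that the GTPases SAR1A and SAR1B and the SEC23, SEC24, SEC13 and SEC31 coat proteins form, while receptors such as LMAN1 with MCFD2, SURF4 and the TMED proteins gather cargo. The COPI coat, recruited by ARF GTPases, returns escaped residents, which the KDEL receptors recognise by their tail sequence.

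AGR2 RNA was far lower in the knockdown and modestly higher in the overexpressing cells. It stood at 0.592, 0.658 and 0.769 TPM in the shAGR2 libraries, against 32.9, 31.2 and 31.7 TPM in the 24 h controls. At 72 h the oeAGR2 libraries had 12.1, 10.7 and 10.7 TPM and the controls 8.67, 7.82 and 7.85 TPM. Both 72 h groups were thus below the 24 h controls in AGR2 RNA. Epithelial markers were present (EPCAM 30.3 to 50.2 TPM, KRT18 1460 to 4330 TPM over the 12 libraries), NKX2-1 reached 7.73 TPM, the surfactant gene SFTPB stayed at or below 0.0322 TPM, and the leukocyte gene PTPRC at or below 0.0213 TPM. The fibroblast collagen gene COL1A1 was at 3.54 to 8.56 TPM and the myeloid gene LYZ at 0.627 to 1.81 TPM, and their part in the results was not tested. TPM is a transcript abundance per unit of length that sums to 1000000 in each library, so a level is relative and the depth is unknown. Fewer cells of a type and less RNA per cell cannot be told apart in such bulk samples.

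The libraries differed in composition, which bears on every count below. Mitochondrial transcripts took 36.2% to 37.1% of TPM in shAGR2 cells and 42.6% to 46.5% in 24 h controls, and at 72 h 37.3% to 47.4% in oeAGR2 cells and 41.1% to 42.8% in controls. In the difference between long and short transcripts, taken as each library's deviation from its group, oeAGR2 replicate 1 (-0.264) and 24 h control replicate 1 (-0.113) were lowest, and oeAGR2 replicate 1 had 37.3% mitochondrial TPM against 47.4% and 45.8% in the other oeAGR2 libraries. The median log2 change over all tested genes was 0.35 with the knockdown, 0.025 with overexpression and 0.30 for 72 h against 24 h controls. Every comparison was therefore also made after each library was rescaled by the median ratio of its genes to their geometric mean over all libraries, which moves those medians to -0.0088, -0.028 and -0.0075. Changes are log2 differences of TPM + 1 from limma with Benjamini-Hochberg adjustment over all tested genes, called at an adjusted p of 0.05. Where 2 changes are given for a gene, the first is as deposited and the second after rescaling.

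With AGR2 knocked down, the members called after rescaling were split evenly between higher and lower, as were all tested genes. As deposited, 33 of 44 members were called higher and 2 lower, where 53.6% of all tested genes were called higher and 11.9% lower. After rescaling 13 were higher and 13 lower, and over all tested genes these calls were 29.8% and 29.5%, so the rescaled counts are at the share over all genes and are no result about the group. The member median was 0.41 as deposited and -0.053 after rescaling. Called higher under both scalings were 13 members, 6 of them COPII genes, and called lower under both were SSR4 and KDELR3. TMED10, SEC62, COPG1 and COPZ1 were called higher as deposited and lower after rescaling, so no direction is given for them in the knockdown.

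With AGR2 overexpressed, fewer members were called as deposited, 11 higher and 8 lower, beside 29.9% and 25.5% of all tested genes. After rescaling 8 were higher and 17 lower, beside 26.6% and 29.7% of all tested genes, and the count of lower calls was 11 without control replicate 3 of 72 h. The member median was -0.038 as deposited and -0.10 after rescaling. The 8 members called higher after rescaling were also called higher as deposited, and the 8 called lower as deposited were also called lower after rescaling.

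The comparison of 72 h with 24 h control cells had the most one-sided counts of the 3. As deposited, 40 of 44 members were called higher at 72 h and 0 lower, beside 52.9% and 8.1% of all tested genes. After rescaling 27 were higher and 5 lower, beside 28.6% and 25.3% of all tested genes, with 3 lower when control replicate 1 of 24 h, or control replicate 2 or 3 of 72 h, was left out. The member median was 0.70 as deposited and 0.28 after rescaling, against 0.30 and -0.0075 for all tested genes. The 44 genes together held 0.608% to 0.611% of nuclear protein-coding TPM in 72 h controls and 0.444% to 0.493% in 24 h controls, with no overlap between the groups. In shAGR2 cells this share was 0.504% to 0.511%, also above the 24 h controls without overlap. In oeAGR2 cells it was 0.596% to 0.646%, which overlapped the 72 h controls. Such a sum weighs the most abundant genes most. In the knockdown it does not show a rise of the group, where 13 members were higher and 13 lower after rescaling, with a median of -0.053. Time in drug and time in culture cannot be told apart here, since both control groups were treated. AGR2 RNA also differed between the controls, lower at 72 h (-1.86 and -2.28), and its part in this comparison was not tested.

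**Figure D1:**
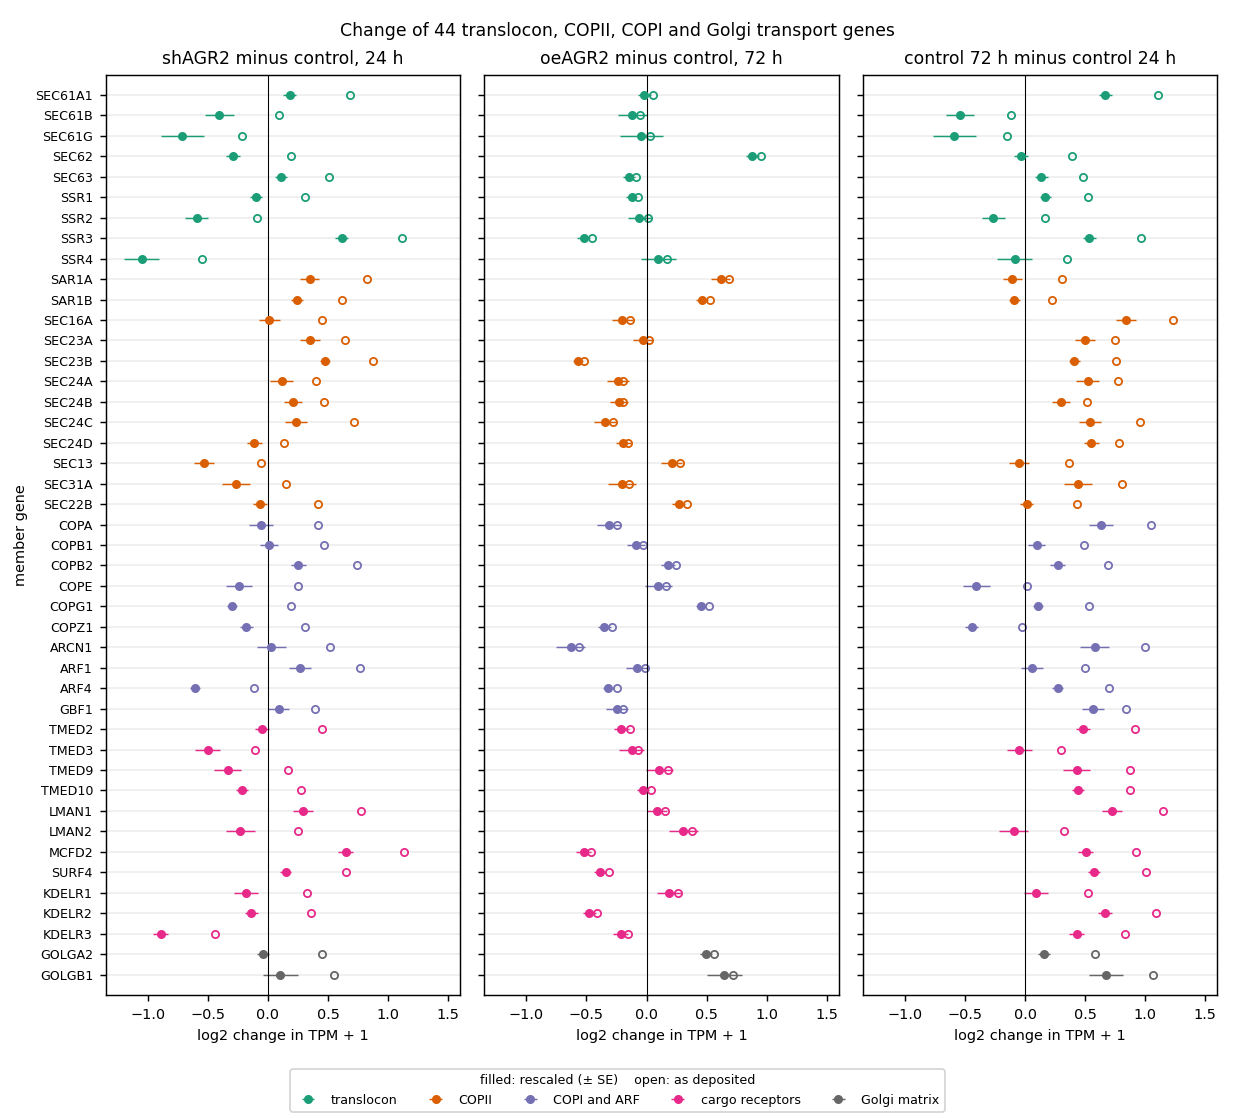
Log2 change in TPM + 1 of the 44 genes in the 3 comparisons, by role: filled points are the values after rescaling with the SE of the limma fit, open points the values as deposited. In the knockdown the open points lie right of the filled ones, with SSR4 at -0.55 (open) and -1.05 (filled), and in the control comparison most points of either kind lie right of 0.

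In the translocon, 5 of 9 genes were called higher and 1 lower with the knockdown as deposited, and 2 and 5 after rescaling. Over all tested genes these calls were 53.6% and 11.9%, and 29.8% and 29.5%. Within the TRAP complex, SSR3 rose and SSR4 fell. SSR3, the gamma subunit (ENSG00000114850, chr3:156539553-156555149, minus strand), was at 99.3, 90.8 and 94.04 TPM in shAGR2 cells and at 40.6, 45.04 and 44.2 TPM in 24 h controls. Every knockdown library was above every control, a change of 1.11 as deposited (SE 0.056, limma adjusted p = 7.94e-08) and 0.61 after rescaling. SSR4, the delta subunit (ENSG00000180879, chrX:153793516-153798499, plus strand), was at 71.1, 74.7 and 73.9 TPM in shAGR2 cells and 120.1, 97.7 and 105.6 TPM in controls. It fell by 0.55 as deposited (limma adjusted p = 0.00126) and by 1.05 after rescaling, again with no overlap. SSR4 overlaps IDH3G on the other strand, which reached 28.2 TPM, and reads of such a pair cannot be told apart if counting ignored the strand, which no source used here states.

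Within the summed TPM of the 4 TRAP genes, a share that no scaling of a library can alter, SSR3 took 41.5% ± 1.48 in shAGR2 cells and 20.3% ± 2.15 in 24 h controls (SD, n = 3 each). SSR4 took 32.1% ± 1.15 in shAGR2 cells and 50.3% ± 2.60 in controls. SSR3 had the largest share in each shAGR2 library and SSR4 in each control, and neither share overlapped between groups (exact permutation test, two-sided, p = 0.1 for each, the smallest that 3 against 3 libraries allow). SSR2 also took less, 24.3% ± 0.531 in shAGR2 cells against 27.7% ± 0.248 in controls, without overlap.

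Overexpression moved the shares of SSR3 and SSR4 the opposite way by a smaller amount. SSR3 was at 63.8, 62.6 and 59.95 TPM in oeAGR2 cells and 87.9, 84.5 and 83.96 TPM in 72 h controls, and fell by 0.45 as deposited (limma adjusted p = 6.37e-05) and 0.52 after rescaling. Its share of TRAP was 21.5% ± 1.98 in oeAGR2 cells and 28.96% ± 0.636 in controls, and that of SSR4 53.4% ± 2.84 in oeAGR2 cells and 46.6% ± 1.38 in controls, both without overlap (exact permutation p = 0.1). The level of SSR4 itself was 185.4, 136.1 and 145.5 TPM in oeAGR2 cells and 135.2, 134.2 and 142.7 TPM in controls, which overlapped, and it was not called (0.17 and 0.098). The share of SSR2 was 23.3% ± 0.601 in oeAGR2 cells and 22.6% ± 0.776 in 72 h controls, which overlapped. SSR1 held between 1.38% and 2.14% of TRAP TPM in all 12 libraries.

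SEC62, which serves post-translational entry and the recovery phase of stress in the endoplasmic reticulum, had the largest rise of the 44 genes with overexpression. It was at 42.7, 44.01 and 43.2 TPM in oeAGR2 cells and at 23.2, 21.1 and 21.6 TPM in 72 h controls (0.95 with SE 0.070, limma adjusted p = 1.80e-06, and 0.88 after rescaling). In the knockdown it was at 20.3, 18.6 and 18.1 TPM, against 14.9, 17.7 and 17.1 TPM in controls, and its sign depended on the scaling (0.19 and -0.29). Its partner SEC63, at 4.02 to 4.75 TPM in oeAGR2 cells and 4.61 to 4.77 TPM in controls, was not called as deposited (-0.089) and fell by 0.14 after rescaling.

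The pore subunit SEC61A1 (ENSG00000058262, chr3:128051641-128071705, plus strand) was at 68.3, 62.7 and 68.9 TPM in shAGR2 cells and 40.2, 39.3 and 44.02 TPM in 24 h controls. That is a rise of 0.68 as deposited and 0.18 after rescaling (limma adjusted p = 0.0148). It stood at 92.3, 92.4 and 93.1 TPM in oeAGR2 cells and 91.7, 87.2 and 89.4 TPM in 72 h controls, a difference that was not called. Between the controls it rose by 1.10 at 72 h as deposited and 0.67 after rescaling, while the small subunits SEC61B and SEC61G, called neither way as deposited, fell by 0.54 and 0.59 after rescaling. SEC61A1 thus took 51.4% ± 1.10 of the TPM of the 3 channel genes in 72 h controls and 30.6% ± 2.91 in 24 h controls, and 43.5% ± 2.09 in shAGR2 cells. Channel shares were added after values were seen. SEC61B and SEC61G have the shortest transcripts of the group, 687 and 1227 nt, and the 1835 tested genes between 686 and 1339 nt had a median change at 72 h of 0.081 as deposited and -0.27 after rescaling.

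**Figure D2:**
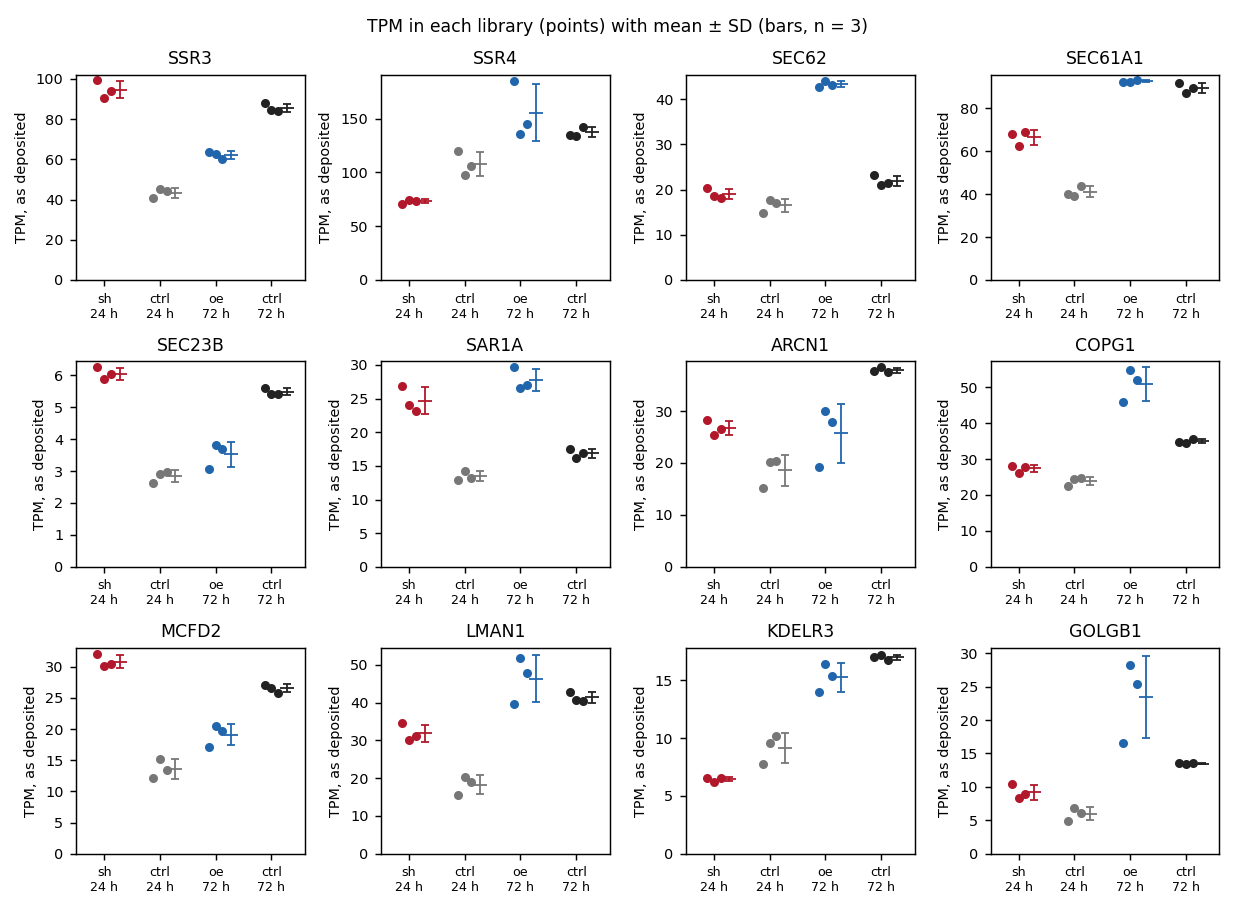
TPM as deposited of 12 members in each library, for shAGR2 and control cells at 24 h and oeAGR2 and control cells at 72 h, with the mean and SD of 3 libraries beside the points. SSR3 and MCFD2 are higher in shAGR2 than in control cells at 24 h and lower in oeAGR2 than in control cells at 72 h, while SEC62 stands apart in oeAGR2 cells, at 42.7 to 44.01 TPM.

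Promoters are shown for 4 of the members named for their calls that hold TGACGTGG (CCACGTCA on the other strand), an octamer known as a binding site of the stress factors XBP1 and ATF6. Each is the 250 bases before the RefSeq start of a transcript (GRCh38.p14), 5′ to 3′ on the gene's strand, with the octamer in capitals. Such a start can differ from the gene boundary in the deposited table. The SSR3 and SSR4 windows lie wholly within the gene bounds given above, before a start inside the gene. The windows are SSR3 at chr3:156554126-156554375 (minus strand), SSR4 at chrX:153794418-153794667 (plus), KDELR3 at chr22:38467846-38468095 (plus) and SEC62 at chr3:169966557-169966806 (plus).
SSR3: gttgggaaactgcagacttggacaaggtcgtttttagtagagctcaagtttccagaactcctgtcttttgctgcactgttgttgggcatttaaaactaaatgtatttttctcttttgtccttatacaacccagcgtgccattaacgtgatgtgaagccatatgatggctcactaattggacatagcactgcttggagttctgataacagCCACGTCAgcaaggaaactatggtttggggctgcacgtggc
SSR4: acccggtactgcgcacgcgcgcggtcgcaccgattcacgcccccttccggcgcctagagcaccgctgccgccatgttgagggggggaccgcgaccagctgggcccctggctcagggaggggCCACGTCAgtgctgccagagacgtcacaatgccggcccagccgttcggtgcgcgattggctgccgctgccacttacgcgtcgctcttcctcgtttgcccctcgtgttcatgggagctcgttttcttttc
KDELR3: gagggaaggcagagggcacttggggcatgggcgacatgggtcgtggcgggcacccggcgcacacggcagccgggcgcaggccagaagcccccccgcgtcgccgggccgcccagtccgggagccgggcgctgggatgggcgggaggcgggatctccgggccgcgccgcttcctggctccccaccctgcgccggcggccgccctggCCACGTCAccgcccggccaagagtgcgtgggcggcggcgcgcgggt
SEC62: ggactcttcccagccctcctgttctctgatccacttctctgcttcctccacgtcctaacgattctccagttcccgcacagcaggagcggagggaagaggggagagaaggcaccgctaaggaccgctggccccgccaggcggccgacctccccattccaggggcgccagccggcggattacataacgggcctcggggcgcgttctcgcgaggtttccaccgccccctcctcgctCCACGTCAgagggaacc

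The octamer begins 41 bases before the start in SSR3, 129 in SSR4, 46 in KDELR3 and 17 in SEC62. The 4 windows were chosen for holding it, and those of MCFD2 and SEC23B, which were also among the largest rises with the knockdown, do not hold it. Of the 40 members with a window, 8 hold it on either strand in any of their windows (20%), against 0.78% of 27305 genes with a window. The other holders are SEC24A, COPB1, COPB2 and ARF1, of which COPB2 and ARF1 were also named for their calls but are not shown. In all 11 motifs were searched on both strands, and several overlap, since the octamer contains ACGTG and, on the other strand, CCACG. The core ACGTG was found in 57.5% of members and 21.7% of all genes. The other core CCACG was in 80% of members and 37.5% of all genes, the shorter CGTG in 95% and 64.3%, the E-box CACGTG in 15% and 7.73%, the CCAAT box in 47.5% and 37%, and the amino acid response form TGACGCAA in 2.5% and 0.604%. The cyclic AMP response element TGACGTCA (2.03% of all genes), the longer form GATGACGTG (0.146%) and the endoplasmic reticulum stress elements ERSE (0.0916%) and ERSE-II (0.0659%) were in none of the member windows. These are matches of letters in a fixed window, and binding was not measured. The 27305 genes include genes not tested for expression here, and were not matched to the members in base composition. The 40 members have 57 windows, and the 27305 genes 35115. The part of these differences in the percentages was not tested.

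Of the 12 COPII genes 9 were called higher with the knockdown as deposited and 0 lower, beside 53.6% and 11.9% of all tested genes, and 6 and 1 after rescaling, beside 29.8% and 29.5%. The 6 that rose under both scalings were SEC23A, SEC23B, SAR1A, SAR1B, SEC24B and SEC24C. SEC23B, an inner coat protein (ENSG00000101310, chr20:18507520-18561415, plus strand), was at 6.26, 5.88 and 6.03 TPM in shAGR2 cells and 2.63, 2.91 and 2.99 TPM in 24 h controls. It rose by 0.88 as deposited (SE 0.068, limma adjusted p = 1.37e-06) and 0.48 after rescaling. Its paralog SEC23A was at 2.29, 2.06 and 2.02 TPM in shAGR2 cells and 0.842, 1.11 and 1.07 TPM in controls, a rise of 0.64 and 0.35. The SEC23A rise was no longer called in a fit without the dependence of each library on length and GC content (0.094, limma adjusted p = 0.141). The paralogs kept their ratio, with SEC23A at 25.95% ± 0.843 of the pair in shAGR2 cells and 26.1% ± 1.70 in controls, which overlapped.

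Overexpression separated that pair. SEC23B was at 3.08, 3.81 and 3.69 TPM in oeAGR2 cells and 5.61, 5.41 and 5.43 TPM in 72 h controls, and fell by 0.52 as deposited and 0.57 after rescaling (limma adjusted p = 2.30e-06). SEC23A was at 1.84, 2.88 and 2.59 TPM in oeAGR2 cells and 2.50, 2.35 and 2.24 TPM in controls, and was not called. The share of SEC23A was therefore 40.6% ± 2.83 in oeAGR2 cells and 30.1% ± 0.817 in controls, with no overlap (exact permutation p = 0.1).

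Both SAR1 GTPases, which start coat assembly, rose in either manipulated population. SAR1A was at 26.9, 24.02 and 23.1 TPM in shAGR2 cells and 12.9, 14.3 and 13.1 TPM in 24 h controls (0.83 and 0.35). At 72 h SAR1A was at 29.7, 26.5 and 27.02 TPM in oeAGR2 cells and 17.5, 16.2 and 16.9 TPM in controls (0.69 with limma adjusted p = 1.84e-05, and 0.62). SAR1B, needed for chylomicron export in the intestine, had a lower level, at 4.31, 3.74 and 3.697 TPM in shAGR2 cells against 2.03, 2.32 and 2.27 TPM in controls (0.62 and 0.24). It was at 4.05, 4.72 and 4.49 TPM in oeAGR2 cells and 2.88, 2.72 and 2.65 TPM in 72 h controls (0.53 and 0.46). SAR1A made up 85.9% to 86.3% of the pair in all 4 group means. Its rise with the knockdown was not called after the length and GC trend was removed (0.21, limma adjusted p = 0.074). SAR1A spans CALM2P2 on the other strand, listed at up to 387 TPM, and SAR1B overlaps SEC24A at their starts.

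The SEC24 adaptors, which choose cargo, were dominated by SEC24C, with 82.4% to 86.7% of the family's TPM in each library. SEC24C was at 27, 25 and 26.3 TPM in shAGR2 cells and 12.6, 17.03 and 17.2 TPM in 24 h controls, a rise of 0.72 and 0.24. SEC24B rose by 0.46 and 0.21, and its share was 4.80% ± 0.0583 in shAGR2 cells and 4.26% ± 0.277 in controls, while that of SEC24D was 3.37% ± 0.109 in shAGR2 cells and 4.66% ± 0.429 in controls, both without overlap. SEC16A, the scaffold of exit sites, rose most of the 44 genes at 72 h, to 13.7, 14.04 and 14.9 TPM in 72 h controls against 4.97, 5.49 and 6.07 TPM in 24 h controls (1.23 with limma adjusted p = 1.00e-05, and 0.84). SEC22B, a vesicle SNARE, rose with overexpression, at 24.3, 26.5 and 26.9 TPM in oeAGR2 cells and 20.2, 20.3 and 20.4 TPM in 72 h controls (0.34 and 0.27). SEC13 of the outer coat, at 25.1, 22.2 and 22.5 TPM in oeAGR2 cells and 19.3, 18.5 and 19.2 TPM in controls, was called higher as deposited (0.28) but not after rescaling (0.21).

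In oeAGR2 cells the coatomer subunits COPG1 and COPB2 rose, and ARCN1 and COPZ1 fell, under both scalings. Of the 10 COPI and ARF genes 2 were called higher and 3 lower as deposited, beside 29.9% and 25.5% of all tested genes, and 2 and 5 after rescaling, beside 26.6% and 29.7%. COPG1, the gamma subunit (ENSG00000181789, chr3:129249606-129277773, plus strand), was at 45.8, 54.9 and 52.0 TPM in oeAGR2 cells and 34.9, 34.6 and 35.6 TPM in 72 h controls. It rose by 0.52 as deposited (SE 0.069, limma adjusted p = 0.000101) and 0.45 after rescaling. ARCN1, the delta subunit (ENSG00000095139, chr11:118572390-118603033, plus strand), was at 19.3, 30.03 and 27.9 TPM in oeAGR2 cells and 37.8, 38.4 and 37.5 TPM in controls. It fell by 0.565 as deposited (SE 0.15, limma adjusted p = 0.00974) and 0.63 after rescaling, with oeAGR2 replicate 1 the lowest. Without that replicate the ARCN1 value as deposited was -0.38.

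As shares of the summed coatomer TPM, COPG1 held 26.4% ± 0.505 in oeAGR2 cells and 18.7% ± 0.284 in controls, and ARCN1 13.2% ± 2.06 in oeAGR2 cells and 20.2% ± 0.349 in controls (no overlap, exact permutation p = 0.1 for each). Coatomer shares were added after values were seen, so they restate the changes above and are no separate support. COPZ1, the zeta subunit, fell as well, at 17.4, 16.8 and 16.3 TPM in oeAGR2 cells and 20.7, 20.7 and 20.9 TPM in controls (-0.29 and -0.35). COPB2, the beta-prime subunit that binds cargo tails, rose with the knockdown, at 38.3, 34.6 and 33.6 TPM in shAGR2 cells and 18.2, 22.8 and 21.5 TPM in 24 h controls (0.74 and 0.25). Its smaller rise with overexpression, to 38.02, 43.3 and 41.2 TPM in oeAGR2 cells against 34.7, 34.1 and 33.8 TPM in controls (0.25 with limma adjusted p = 0.0287), was lost as deposited when any one of the 72 h controls or oeAGR2 replicate 2 or 3 was left out, at 0.21 to 0.26.

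ARF1, the GTPase that recruits coatomer, rose in shAGR2 cells, at 173.3, 169.9 and 188.0 TPM against 107.7, 92.1 and 111.3 TPM in 24 h controls (0.77 and 0.27). ARF4 was not called as deposited, at 31.1, 28.5 and 30.8 TPM in shAGR2 cells and 29.9, 34.96 and 33.3 TPM in controls, and fell by 0.61 after rescaling. ARF1 took 85.5% ± 0.603 of the pair in shAGR2 cells and 75.9% ± 3.03 in controls, without overlap. With overexpression ARF4 fell, at 43.1, 46.0 and 46.2 TPM in oeAGR2 cells against 52.6, 54.5 and 54.2 TPM in 72 h controls (-0.25 and -0.32).

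**Figure D3:**
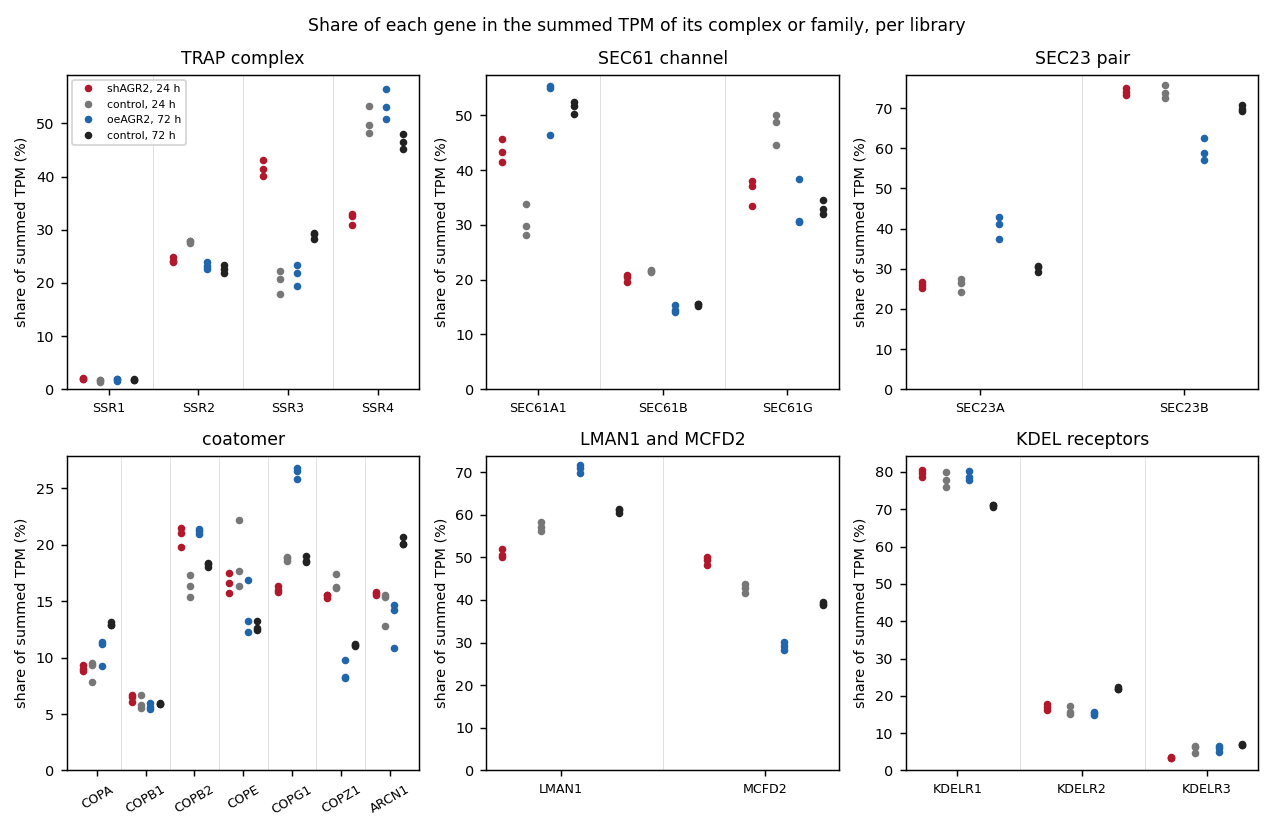
Share of each gene in the summed TPM of its complex or family, in percent, with 1 point per library and the groups in the order shAGR2 and control at 24 h, oeAGR2 and control at 72 h. SSR3 stands at 41.5% on average in shAGR2 cells and 20.3% in their controls, and COPG1 at 26.4% in oeAGR2 cells and 18.7% in their controls.

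Of the 11 cargo receptors 8 were called higher and 1 lower with the knockdown as deposited, beside 53.6% and 11.9% of all tested genes, and 3 and 4 after rescaling, beside 29.8% and 29.5%. The largest rise was in MCFD2. MCFD2 is the calcium-binding partner with which the lectin LMAN1 exports coagulation factors V and VIII (ENSG00000180398, chr2:46901870-46941855, minus strand). It was at 31.96, 30.1 and 30.4 TPM in shAGR2 cells and 12.1, 15.3 and 13.5 TPM in 24 h controls, a rise of 1.13 as deposited (SE 0.085, limma adjusted p = 1.16e-06) and 0.65 after rescaling. In oeAGR2 cells it was at 17.1, 20.4 and 19.7 TPM, against 27.1, 26.7 and 25.8 TPM in 72 h controls, and it fell by 0.46 and 0.52. A pseudogene named after it, MCFD2P1, was listed at up to 6.05 TPM.

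LMAN1 itself was at 34.5, 30.1 and 31.1 TPM in shAGR2 cells and 15.5, 20.4 and 18.9 TPM in 24 h controls (0.78 and 0.29). Against its paralog LMAN2, LMAN1 took 61.1% ± 2.04 of the pair in shAGR2 cells and 51.8% ± 6.61 in 24 h controls, without overlap. With overexpression LMAN1 was not called, at 39.6, 51.7 and 47.8 TPM in oeAGR2 cells and 42.9, 40.8 and 40.4 TPM in controls. MCFD2 accordingly made up 49.2% ± 0.976 of the summed TPM of the pair in shAGR2 cells and 42.7% ± 1.08 in 24 h controls, and 29.2% ± 0.935 in oeAGR2 cells and 39.1% ± 0.424 in 72 h controls. Neither pair of groups overlapped (exact permutation p = 0.1 for each). The share of MCFD2 with LMAN1 was added after values were seen, so it restates their changes and is no separate support. SURF4, a receptor for several soluble cargoes, followed the direction of MCFD2, at 71.0, 65.2 and 72.5 TPM in shAGR2 cells against 39.9, 44.4 and 48.3 TPM in controls (0.65 and 0.15), and at 68.5, 74.5 and 72.7 TPM in oeAGR2 cells against 90.8, 90.1 and 88.1 TPM in controls (-0.32 and -0.38).

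The 3 KDEL receptors differed. KDELR3 fell with the knockdown, at 6.59, 6.22 and 6.56 TPM in shAGR2 cells and 7.72, 9.59 and 10.2 TPM in 24 h controls (-0.44 with limma adjusted p = 0.00135, and -0.89). KDELR3 overlaps DDX17 on the other strand, which reached 219 TPM, more than the highest KDELR3 level of 17.2 TPM. KDELR2 was at 41.6, 40.2 and 40.1 TPM in oeAGR2 cells and 54.0, 54.4 and 54.2 TPM in 72 h controls, a fall of 0.41 as deposited (limma adjusted p = 1.05e-05) and 0.48 after rescaling. KDELR1, the most abundant, was called higher with overexpression as deposited alone (0.26) and took 78.9% ± 1.30 of the family in oeAGR2 cells and 71.0% ± 0.302 in controls, without overlap.

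At 72 h the cargo receptors were all called higher in control cells as deposited, 11 of 11 beside 52.9% of all tested genes, and 8 of 11 after rescaling, beside 28.6%. This was not particular to them. COPII genes were higher in 12 of 12 as deposited and 8 of 12 after rescaling, and Golgi matrix genes in 2 of 2 each time. COPI and ARF genes had 8 of 10 and 5 of 10 higher, and the translocon 7 of 9 and 4 of 9. After rescaling 2 COPI and ARF genes and 3 translocon genes were lower. LMAN1 was at 42.9, 40.8 and 40.4 TPM in 72 h controls and 15.5, 20.4 and 18.9 TPM in 24 h controls (1.15 with limma adjusted p = 1.48e-05, and 0.72), and KDELR2 at 54.0, 54.4 and 54.2 TPM in 72 h controls and 24.5, 25.4 and 24.9 TPM in 24 h controls (1.09 and 0.66). TMED9, the most abundant member at 72 h, was at 231.4, 215.7 and 221.7 TPM in 72 h controls and 124.1, 113.4 and 127.5 TPM in 24 h controls (0.87 and 0.43). Of the 4 TMED genes among the 44, which carry GPI-anchored and other cargo, TMED2 alone was called with overexpression, and after rescaling alone (-0.21). SURF4 (1.01 and 0.575) and the coatomer subunits ARCN1 (1.001 and 0.58) and COPA likewise rose at 72 h, COPA to 24.3, 23.9 and 24.6 TPM in 72 h controls against 9.28, 12.3 and 12.5 TPM in 24 h controls (1.04 and 0.63).

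The Golgi matrix genes rose with overexpression. GOLGB1, the tether giantin, was at 16.5, 28.3 and 25.4 TPM in oeAGR2 cells and 13.5, 13.4 and 13.5 TPM in 72 h controls (0.72 with SE 0.17 and limma adjusted p = 0.00544, and 0.65). GOLGA2, the cis-Golgi tether GM130, was at 41.9, 50.5 and 48.6 TPM in oeAGR2 cells and 32.03, 30.9 and 31.1 TPM in controls (0.57 and 0.50). Each oeAGR2 library lay above each control for both genes, with replicate 1 nearest to the controls, and without it the GOLGB1 change as deposited was 0.94. In the knockdown both were called higher as deposited and neither after rescaling. Between the control groups GOLGB1 rose by 1.06 and 0.67.

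The difference between the overexpression and knockdown effects was tested directly in limma, from groups that share no library. The manipulations were sampled at different times, so their direction and the time cannot be told apart. As deposited, 4 of 44 members had a higher overexpression effect and 22 a lower one, beside 20.1% and 45.6% of all tested genes, and after rescaling 17 and 14, beside 31.1% and 32.7%. The count of 4 was 7 without oeAGR2 replicate 1 and 24 h control replicate 1, the libraries lowest in long transcripts, and that of 17 was 11 without control replicate 2 or 3 of 72 h. MCFD2 (-1.59 and -1.17), SSR3 (-1.57 and -1.14) and SEC23B (-1.40 and -1.04) had the largest lower values, and SEC62 (0.76 and 1.17), SSR4 (0.71 and 1.15) and COPG1 (0.33 and 0.75) the largest higher ones.

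Under both scalings, SSR3, SEC23B, MCFD2 and SURF4 were higher in the knockdown and lower with overexpression, 4 of 44 members where 12.9% of all tested genes met both criteria. SAR1A, SAR1B and COPB2 were higher in both, 3 of 44 beside 4.41% of all tested genes. Neither lower and higher (5.67% of all tested genes) nor lower in both (2.26%) had a member. These counts are near the shares over all genes and describe the named genes, not the group. SSR3 (0.97 and 0.53), SEC23B (0.76 and 0.41), MCFD2 (0.92 and 0.50) and SURF4 (1.01 and 0.575) were also called higher in 72 h than in 24 h controls. Their fall with overexpression is measured against those higher 72 h controls.

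**Figure D4:**
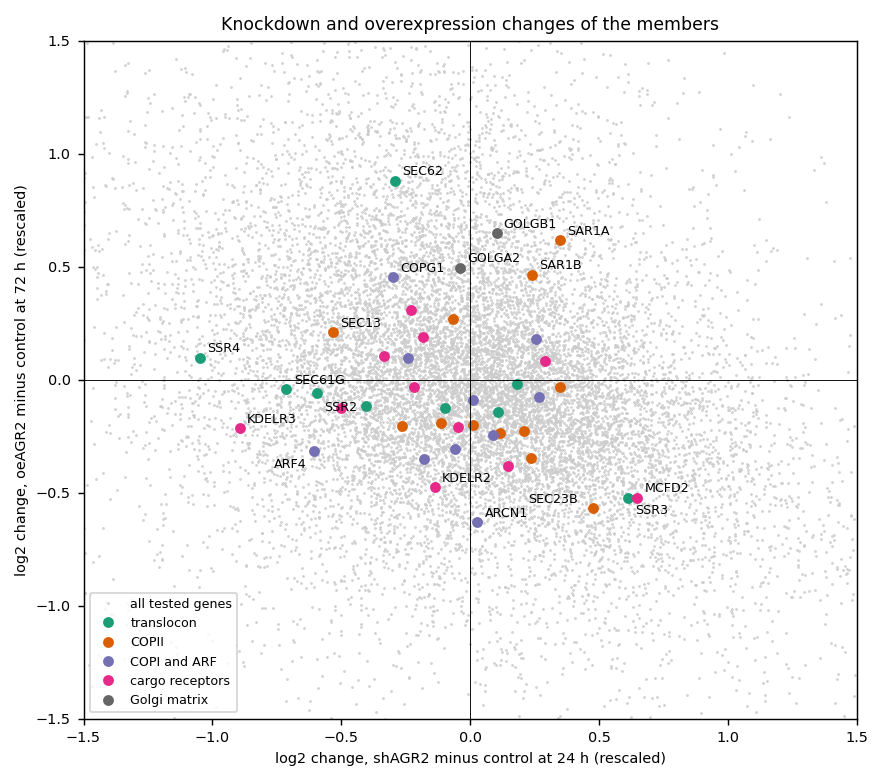
Log2 change after rescaling, with the knockdown at 24 h on the x axis and overexpression at 72 h on the y axis, for the 44 members (coloured by role) and all tested genes (grey, those beyond 1.5 in either direction not drawn). SSR3, MCFD2 and SEC23B lie at the lower right, SAR1A and SAR1B at the upper right, and SEC62 at the top, at -0.29 and 0.88.

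Of 102 further genes of the early secretory pathway, 96 were tested. With the knockdown 58 were called higher and 10 lower as deposited, beside 53.6% and 11.9% of all tested genes, and 21 higher and 39 lower after rescaling, beside 29.8% and 29.5%. TRAM2, which assists translocation, was the largest rise, at 7.13, 6.29 and 6.76 TPM in shAGR2 cells and 1.82, 2.43 and 2.50 TPM in 24 h controls (1.26 and 0.87), followed by TMED8 (1.09 and 0.66) and SRP72 of the signal recognition particle (1.11 and 0.65). GORASP1, a Golgi stacking protein, fell most, at 8.07, 7.53 and 6.65 TPM in shAGR2 cells and 12.5, 13.1 and 13.3 TPM in controls (-0.73 and -1.20), before TMEM115 (-0.69 and -1.19) and the membrane-bound transcription factor CREB3L4 (-0.53 and -0.99). Among 7 tested transcriptional regulators of the pathway, 1 was higher and 3 lower as deposited, and 0 were higher and 6 lower after rescaling, beside the same shares of all tested genes. XBP1 was at 40.3, 36.9 and 37.1 TPM in shAGR2 cells and 46.0, 47.5 and 45.3 TPM in controls (-0.28 and -0.77).

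With overexpression 32 of these 96 genes were called higher and 22 lower as deposited, and 27 and 25 after rescaling, close to the shares of all tested genes, 29.9% and 25.5% as deposited and 26.6% and 29.7% after rescaling. TMED4 (0.89 and 0.82), TMEM39A (0.84 and 0.77) and NAPA, the alpha-SNAP disassembly factor (0.67 and 0.61), rose most. TRAM2 had the largest fall, at 1.602, 2.43 and 2.23 TPM in oeAGR2 cells and 4.90, 4.90 and 5.11 TPM in 72 h controls (-0.96 and -0.99), with the Golgi GTPase RAB6A (-0.77 and -0.83) and the signal peptidase subunit SPCS3 (-0.58 and -0.65) next. Between the controls 72 were higher and 4 lower at 72 h as deposited, beside 52.9% and 8.1% of all tested genes, and 35 and 20 after rescaling, beside 28.6% and 25.3%. The largest rises were in ERGIC1 (1.24 and 0.84), TRAPPC10 (0.88 and 0.68) and TRAM1 (1.08 and 0.66). SRP14 (-0.65 and -1.09) and SRP9 (-0.29 and -0.72), which bind the Alu domain of the signal recognition particle RNA, and CREB3L4 (-0.29 and -0.70) fell. XBP1 was at 96.0, 91.2 and 91.2 TPM in 72 h controls, a rise of 0.99 and 0.55.

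Transcript length moved with these changes. The longest transcript of a member ran from 687 nt in SEC61B to 16555 nt in TMED3. Over the 44 members Pearson's r between log2 length and the change after rescaling was 0.365 in the knockdown, 0.135 with overexpression and 0.390 between the controls, and over 14700 tested genes with a length 0.149, -0.0834 and 0.384. These are correlations across genes of the same libraries and carry no test. With each library's trend on length and GC content removed, the knockdown gave 10 members higher and 19 lower, overexpression 12 and 11, and the control comparison 27 and 5. No share over all tested genes is given for that fit, so its counts are no result about the group. SSR3, MCFD2, SEC23B, SSR4 and KDELR3 kept their sign and call in the knockdown in that fit. LMAN1 (0.17), ARF1 (0.55) and COPB2 (0.23) did so as well, while SEC23A (0.094) and SAR1A (0.21) lost their call. With overexpression, the 8 members higher and the 8 lower under both scalings kept sign and call in that fit. The part of length in the remaining changes was not tested.

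**Figure D5:**
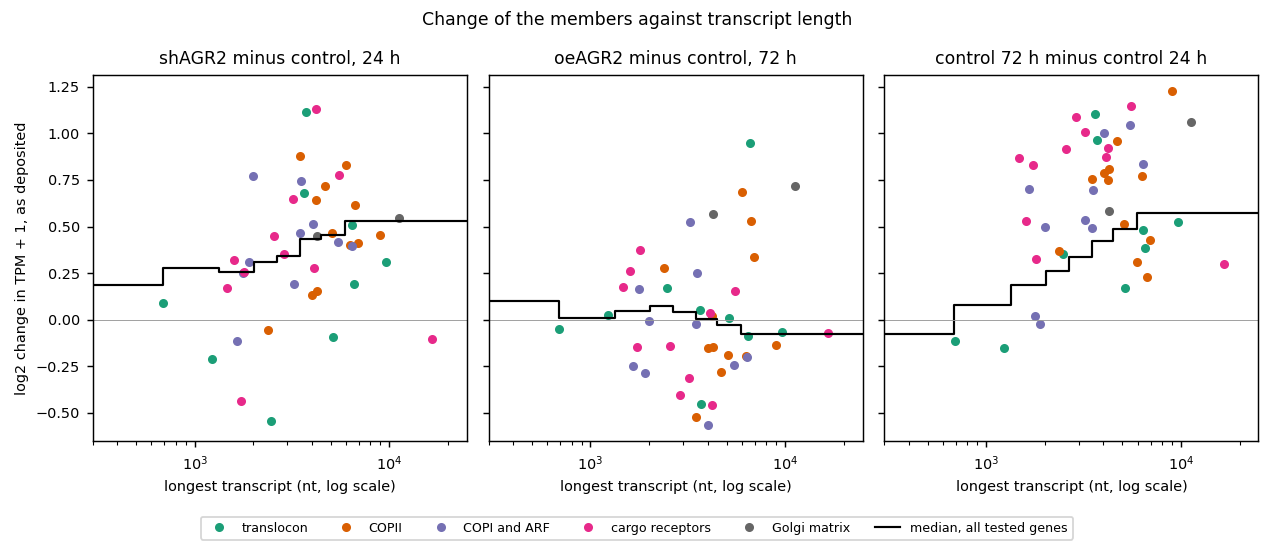
Log2 change as deposited against the length of the longest annotated transcript on a log axis, for the 44 members (points) and as the median of all tested genes in 8 classes of length (line). The line climbs with length in the knockdown, where the classes run from 0.18 to 0.53, and more steeply between the controls, from -0.079 to 0.57.

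Reads can also be shared between genes. Of the 44 members, 30 overlap a listed gene on the other strand, and for 19 of them the highest level of that gene was over 10% of the member's lowest, COPA with NCSTN and SUMO1P3 among them. On the same strand SSR1, whose lowest level was 3.12 TPM, overlaps the pseudogene RPS3P4 at up to 581 TPM, and SEC31A, with a lowest level of 3.36 TPM, overlaps THAP9-AS1 at up to 32.2 TPM, pairs that counting by strand would not separate. A listed pseudogene carries the name of 6 members, with ARF4P1 at up to 44.5 TPM and SEC63P1 at up to 33.4 TPM. No source used here states how reads of such copies were divided, so levels of these members are uncertain to that extent.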

How the data were processed

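Per the labels' protocols, NucleoZOL yielded the total RNA, which was sequenced as Illumina libraries. The submitters' processing notes name STAR 2.7.8a and hg38/GRCh38, while no source used here states the quantifier or strandedness. The authors deposited TPM for 30225 genes in 12 libraries. Depth is unknown. A gene was kept if 3 or more of its 12 values reached 1 TPM, and fitted as log2(TPM + 1) in limma 3.58.1 (R 4.3.3) with 4 group means, 8 residual degrees of freedom, an intensity trend and two-sided moderated tests, adjusted by Benjamini-Hochberg over 15721 genes. Rescaling used 23255 genes above 0 in every library. Lengths came from GENCODE release 29 (84.0% of genes matched), promoters from RefSeq. Gene coordinates are those of the deposited table. The members, the gene lists, the naming rule and the alternatives were chosen with earlier results of these data known. Up to 8 members per direction and comparison, called with 1 sign under both scalings, are given per library, ranked by the smaller change. Shares of the coatomer, the SEC61 channel, and LMAN1 with MCFD2 were added after values were seen. Python 3.11.15, numpy 2.4.6, pandas 2.3.3, scipy 1.17.1 and matplotlib 3.10.9 were used.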

Additional observations from a re-analysis of the deposited data

How the results depend on the processing

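Counts of called members depended on how libraries were scaled and on whether the length and GC trend was removed. For the knockdown (33 higher, 2 lower) they were 14 and 8 with nuclear protein-coding genes alone, 10 and 19 with the length and GC trend removed, 13 and 13 rescaled, and 13 and 14 rescaled with a replicate block. The 8 lower calls of overexpression became 17 rescaled, with and without the block. The 0 lower calls between controls became 4, 5, 5 and 5 under the same 4 settings in that order. For the difference of the effects, 4 higher became 9, 16, 17 and 18, and 7 without oeAGR2 replicate 1 and 24 h control replicate 1, both low in long transcripts (chosen after seeing the data), and 22 lower became 10 with the trend removed and 14 rescaled, with and without the block. Shares over all tested genes are given above only for the fits of all 12 libraries as deposited and rescaled, without a block. Counts under every other setting, with libraries left out included, have no such share beside them. Whether all tested genes shifted alike was not tested, so those counts are no result about the group. The cause was not tested.

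Leaving out each library in turn gave 28 to 34 higher and 2 to 3 lower for the knockdown, 10 to 11 and 8 to 11 for overexpression, 37 to 40 and 0 between controls, and 4 to 5 and 22 to 24 for the difference. With rescaled libraries lower calls ran from 11 to 19 for overexpression and from 3 to 5 between controls, and higher calls of the difference from 11 to 17.

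In the knockdown TMED10 turned to -0.30 with the trend removed and -0.22 rescaled with or without the block. SEC62 turned to -0.046 with protein-coding genes alone, -0.39 with the trend removed and -0.29 rescaled with or without the block, and COPG1 to -0.049, -0.15 and -0.30 likewise. COPZ1 turned to -0.0698 with the trend removed and -0.18 rescaled with or without the block. Between controls SSR2 turned to -0.10 with protein-coding genes alone, -0.36 with the trend removed and -0.27 rescaled with or without the block. SEC24B turned to 0.031 in the difference of the effects with the trend removed.

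Whether replicate numbers pair the libraries is unknown, since the labels do not say and the correlations cannot settle it. Those of same-numbered deviations were -0.159 to 0.062 as deposited. In the control comparison 3 of 3 libraries correlated best with their own number, against 0 in the knockdown and 1 with overexpression. As deposited, the replicate block gave 32 higher and 2 lower for the knockdown, 11 and 8 for overexpression, 40 and 0 between controls and 4 and 22 for the difference. A pseudocount of 0.1 and no filter on low values kept each deposited count within 1.5 times. TPM hold no counts, so the limit set by depth is unknown.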
